A study of Mus musculus and Homo sapiens with 4 samples.

Results

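Among the HEK transcripts that drew the most reads without having a counted coding region, nearly all kept about the same proportion to coding regions in the captured-ribosome library as in the input, and a few were 6.27-fold to 45.5-fold lower there. The set held 408 transcripts of the 194871 listed in the HEK files. Its members were selected on their summed reads: a row belonged to it when its coding region was listed as missing in either library, its reads over the whole transcript summed to 5000 or more over both libraries, and the number in its Ensembl identifier lay outside 5 ranges. These ranges were 361000 to 365999, 383830 to 389999, 408000 to 411400, 458700 to 459600 and 515800 to 517600. Of 424 rows that met the first 2 conditions, 16 lay inside the ranges and 408 outside. All 408 lacked a coding region in both files, and 0 had a count for a 5′ leader or a 3′ trailer.

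Ribosome profiling sequences the short pieces of RNA that survive nuclease digestion because a ribosome shields them. The HEK line derives from human embryonic kidney, and its cells were kept in DMEM with 10% FBS. The bound library held 80S ribosomes (both subunits joined) pulled out on streptavidin by an affinity tag on the large subunit. The input library, from HEK cells in the same medium, had no capture step. Both lysates were digested with RNase I and passed through size exclusion chromatography. The labels do not say whether both libraries came from 1 lysate, whether the input cells carried the tag, or which drug, if any, was added to the HEK cells. Each of the 2 groups had 1 library, so no test of capture exists, no p-value is given, and each difference is between these libraries.

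A transcript listed without a coding region can be a long noncoding RNA, a small structural RNA, a pseudogene, or an isoform of a coding gene that is itself not annotated as coding, for instance one that keeps an intron. RNA inside other RNA-protein particles can also survive nuclease digestion and enter a profiling library, and capture through a tagged ribosomal subunit is one way to separate such fragments from ribosome footprints. Translation of short reading frames in RNAs annotated as noncoding is also well known. The files identify transcripts by Ensembl identifier alone and do not pair them with gene names, and 0 of the 408 identifiers occurred in the name tables at hand. Members are therefore given by identifier, with no gene name, position or sequence, and the HEK label could not be checked against marker genes.

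The counts over whole transcripts summed to 30208713 in the bound library and 17446956 in the input. Some rows have the counts of another row, and if one read was counted for several transcripts these sums are larger than the number of reads, so the true depth is unknown. Ratios are bound over input, scaled so that the median coding region with at least 100 summed reads has a log2 ratio of 0. At that scale 1.99 bound reads correspond to 1 input read. Intervals are exact (Clopper-Pearson) 95% intervals for counting error only. PCR copies were not marked by molecular identifiers, so even counting error is understated.

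The members divided sharply. A member was called lost when its scaled bound reads were at least 2-fold below its input reads, and kept otherwise. By this rule 13 of 408 members (3.19%) were lost and 395 (96.8%) were kept. Of all 48823 features with at least 100 summed reads, where a feature is a coding region or a whole transcript without one, 1.65% met the rule for lost. The share was 0.446% among 673 coding regions with 5000 or more summed reads and 1.27% among 868 whole coding transcripts with as many. No member was 2-fold or even 1.5-fold higher in the bound library, where 0.113% of all features were at least 2-fold higher. No member lay between the lost member nearest to the kept ones, at a log2 ratio of -2.65, and the lowest kept member, at -0.89. Such a gap was not particular to the members. Of the 673 abundant coding regions, 3 were lower at each threshold from 1.5-fold to 16-fold, and the lowest of the other 670 stood at -0.42.

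In unscaled reads, which differ from the scaled ones by a constant, the kept members had between 1.08 and 2.60 times as many reads in the bound library as in the input, with a median of 2.18 times. The lost members had between 0.0437 and 0.317 times as many. Kept and lost were separated by the ratio itself, so their not overlapping is part of their definition.

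**Figure D1:**
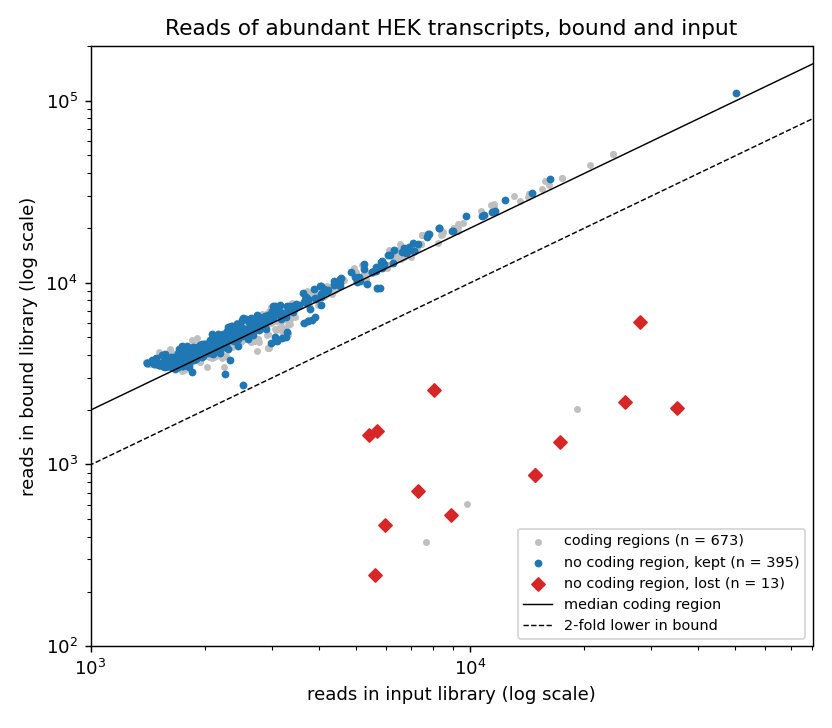
Reads in the bound library (vertical, log scale) against reads in the input library (horizontal, log scale) for 395 kept members (blue), 13 lost members (red diamonds) and 673 coding regions with 5000 or more summed reads (grey). The solid line is the median coding region and the dashed line lies 2-fold lower in the bound library; kept members follow the solid line and the lost members lie well under the dashed one.

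**Figure D2:**
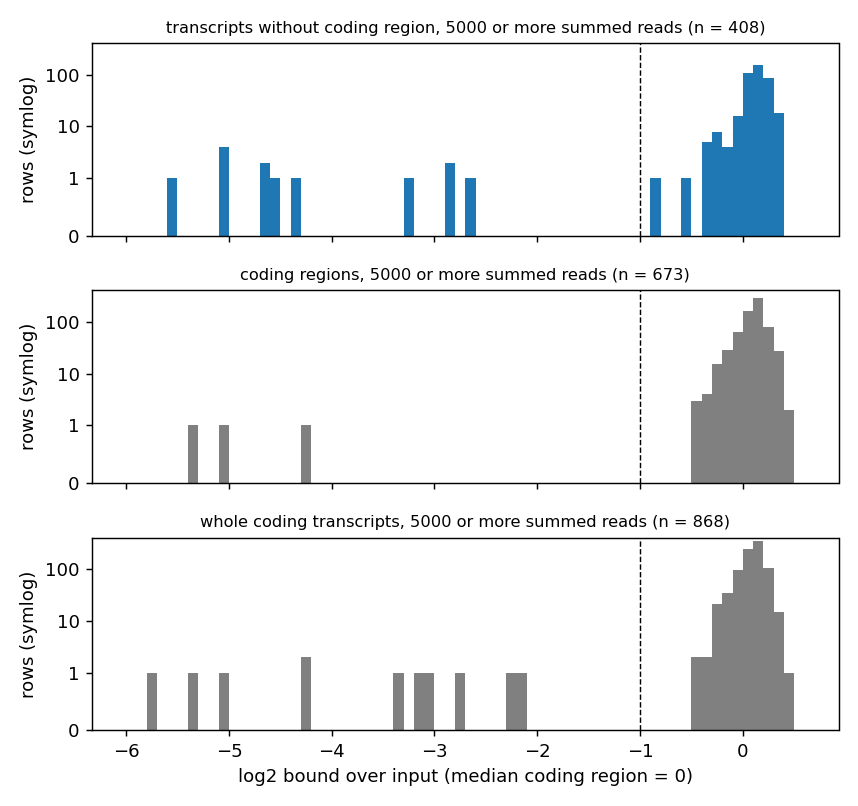
Number of rows (vertical, a scale linear up to 1 and logarithmic above) by log2 ratio of bound over input (horizontal, bins of 0.1) for the 408 members (top), coding regions (middle) and whole coding transcripts (bottom), all with 5000 or more summed reads. The dashed line marks a 2-fold lower ratio; members show 13 rows between -5.50 and -2.65, then none until -0.89.

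The 13 lost members held 20870 reads in the bound library, against 182898 in the input. They took 0.0691% of all transcript counts in the bound library and 1.05% in the input. The 395 kept members took 8.75% in the bound library and 6.99% in the input. All members together took 8.82% of counts in the bound library and 8.04% in the input. The lost rows made up 0.783% of the members' reads in the bound library and 13.0% in the input. These are shares of unscaled totals, and scaling changes the direction for all members together. After scaling, their summed reads were 1.05-fold lower in the bound library, and those of the kept members were 1.09 times the input. With each group of near-equal rows counted once, in the members and in the total, the members took 19.6% and 13.4%. That total is smaller, because rounding merges most rows of low count. Against the full totals, 1 row per member group took 6.05% in the bound library and 5.76% in the input. With a minimum of 2000 summed reads the members took 15.6% and 13.9%, in the same order. Of the 10 members with the most input reads 6 were lost, and of the 10 with the most bound reads 0 were lost. The lost member with the most bound reads stood at rank 134 of 408 in that library. These ranks follow in part from the selection on summed reads and the definition of lost by the ratio. Input reads began at 5409 in lost members and at 1412 in kept ones.

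Among the lost members, 9 were lower by 16-fold or more and 4 were between 6.27-fold and 9.21-fold lower. The 9 had between 245 and 2205 reads in the bound library, against 5611 to 35255 in the input. Their summed reads were 29.0-fold lower in the bound library after scaling. The 4 had 1447 to 6045 bound reads, against 5409 to 28011 input reads, and were together 8.10-fold lower. The number of lower members was 13 of 408 at a 4-fold threshold, 10 at 8-fold, 9 at 16-fold and 5 at 32-fold. Of the 673 coding regions with 5000 or more summed reads, 3, 3, 3 and 2 were lower at the same thresholds.

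ENST00000414273.1 was the most abundant lost member. It had 2052 reads in the bound library, against 35255 in the input, and was 34.2-fold lower (interval 32.7 to 35.7). Only 1 member had more input reads. ENST00000315707.3 had 2205 bound and 25642 input reads and was 23.1-fold lower (22.1 to 24.2). ENST00000415386.2 had 1333 bound and 17273 input reads, 25.8-fold lower (24.4 to 27.3). The intervals of these last 2 members do not overlap, and both lie apart from that of the first.

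The lowest ratio of the set belonged to ENST00000416718.2, which had 245 reads in the bound library, against 5611 in the input. It was 45.5-fold lower (40.1 to 52.0), and its interval lies apart from those of the other lost members. ENST00000574371.1 had 466 bound and 5973 input reads and was 25.5-fold lower (23.2 to 28.1). ENST00000570843.1 had 716 bound and 7298 input reads and was 20.3-fold lower (18.8 to 21.9), the smallest difference among the 9 deepest.

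A trio of lost members shared 1 ratio closely. ENST00000568314.1 had 875 bound and 14882 input reads, and ENST00000563103.1 had 875 bound and 14881 input reads, so they differed by 1 read in the input. Both were 33.8-fold lower (31.6 to 36.2). ENST00000514057.1 had fewer reads, 524 bound and 8918 input, and was also 33.8-fold lower (31.0 to 37.0). The log2 ratio was -5.08 in all 3, and ENST00000414273.1 stood next to them at -5.09. Whether these rows hold the same reads was not tested, because the files give no read positions.

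The 4 less deeply lost members lay apart from the other 9. ENST00000554988.1 had the most reads of them, with 6045 bound reads, against 28011 in the input, and was 9.21-fold lower (8.96 to 9.47). It had more bound reads than any other lost member. ENST00000544868.1 had 1447 bound and 5409 input reads and was 7.43-fold lower (7.01 to 7.88). ENST00000534336.1 had 1536 bound and 5696 input reads and was 7.37-fold lower (6.97 to 7.81), so its interval overlaps most of that of ENST00000544868.1. ENST00000411404.1 had 2551 bound and 8049 input reads and was 6.27-fold lower (5.999 to 6.561). Its identifier number lies 4 above the end of one of the ranges left out, closer than that of any other member. Rows left out by that range had similar values. ENST00000411069.1 had 2797 bound and 9008 input reads (log2 ratio -2.68). ENST00000410344.1 had 2613 and 8379 (-2.67), and ENST00000410694.1 had 2600 and 8372 (-2.68), beside -2.65 for ENST00000411404.1. These rows were named after their values were seen, and whether they share reads with it was not tested.

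**Figure D3:**
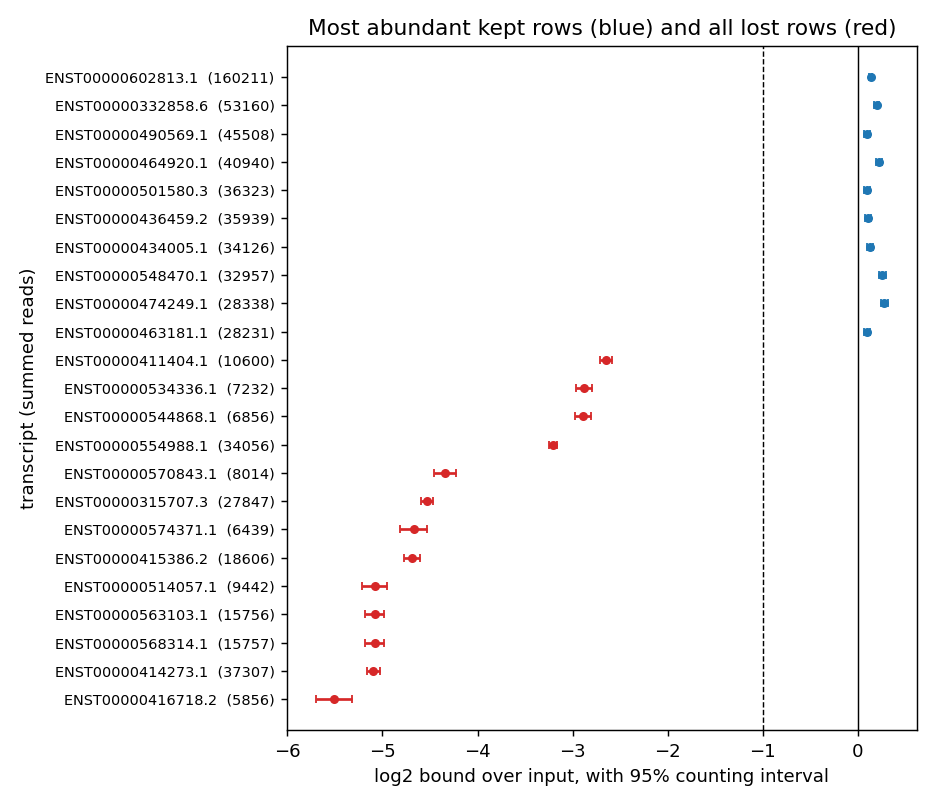
Log2 ratio of bound over input (horizontal) with exact 95% counting intervals for the 10 kept rows that lead the most abundant count groups (blue) and the 13 lost rows (red), each labelled with its identifier and summed reads. The solid line is the median coding region and the dashed line a 2-fold lower ratio. The blue rows lie between 0.09 and 0.28, and the red ones are 6.27-fold to 45.5-fold lower.

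The most abundant member was kept. ENST00000602813.1 had 109907 reads in the bound library, against 50304 in the input, a log2 ratio of 0.14. It alone took 0.364% of all counts in the bound library and 0.288% in the input, and it had more summed reads (160211) than the next 3 members together (139608). Its 2 counts are exactly those of ENST00000387069.1, a row that the identifier ranges leave out, so its reads cannot be told apart from the reads of that row.

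The kept members that followed it in abundance differed little in ratio. ENST00000332858.6 had 36941 bound and 16219 input reads, a log2 ratio of 0.20. ENST00000490569.1 had 30929 bound and 14579 input reads (0.09), and ENST00000464920.1 had 28597 bound and 12343 input reads (0.22). ENST00000501580.3, with 24675 bound and 11648 input reads, stood at 0.09. All of these lie above 0, the point to which the ratios were scaled, and none by more than 1.17 times. Coding regions that reached 20000 reads over both libraries had a median of 0.14. ENST00000332858.6 and ENST00000464920.1 lie above that value, and ENST00000490569.1 and ENST00000501580.3 lie below it.

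Several of the next rows had counts near those of another row. ENST00000436459.2 had 24489 bound and 11450 input reads (0.11), and ENST00000318052.8 had 23547 and 10882 (0.12). ENST00000434005.1 had 23359 bound and 10767 input reads (0.13), close to the row before it, although rounding put the pair in different groups. ENST00000548470.1 had 23194 bound and 9763 input reads, a ratio of 0.26. ENST00000474249.1 had 20030 bound and 8308 input reads, and ENST00000466588.1 had 20030 and 8307, with a ratio of 0.28 for both. ENST00000463181.1 had 19195 bound and 9036 input reads (0.10) and ENST00000490912.1 had 19163 and 8975 (0.10).

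The body of kept members was about as tight as coding regions of like abundance. Their median log2 ratio was 0.13, with quartiles at 0.07 and 0.20, and 360 of 395 (91.1%) lay above 0. Coding regions with 5000 or more summed reads that were less than 2-fold lower had a median of 0.12, with quartiles at 0.04 and 0.18, and 557 of 670 (83.1%) lay above 0. The 26492 coding regions with at least 100 reads have a median of 0 by construction, so abundant rows of both kinds stood above the scale they were set on. The SD of the log2 ratio was 0.137 over kept members and 0.131 over those coding regions. Counting error for 1 typical kept member was 0.037, so the spread among members was wider than counting alone gives. Over the 395 kept members the log2 ratio and the summed reads had a Spearman correlation of -0.009, and over 1 row for each of 229 kept groups it was 0.052; all rows come from the same 2 libraries and may share reads, so these are descriptions.

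At the upper end, 18 kept members had a log2 ratio above 0.3. The highest belonged to ENST00000522551.1, with 3998 bound and 1540 input reads, a ratio of 0.38 or 1.31-fold higher. ENST00000487352.1 followed with 3738 bound and 1448 input reads (0.38). Between 0 and 0.3 lay 342 kept members, and between -0.2 and 0 lay 20. This upper end was not particular to the members. The 95th percentile was 0.29 over kept members and 0.28 over the 670 abundant coding regions less than 2-fold lower. The highest of those coding regions stood at 0.47.

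At the lower end, 15 kept members (3.80%) had a log2 ratio of -0.2 or less, beside 22 of 670 coding regions (3.28%). They had 2717 to 9373 bound reads, against 2257 to 5788 input reads, and no pair of them agreed in both counts at 2 digits. At 2 digits 3 of them had the counts of a coding transcript. Among these, ENST00000523565.1 and ENST00000518216.1 had such counts exactly. The lowest kept member was ENST00000538654.1, with 2717 reads in the bound library, against 2526 in the input, and 1.85-fold lower (1.75 to 1.95). ENST00000582588.1 had 3127 bound and 2257 input reads and was 1.44-fold lower (1.36 to 1.52). The remaining 13 of these members lay between -0.38 and -0.27. These rows were singled out after their values were seen.

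Many rows of the set had counts near those of another row. Grouped by both counts rounded to 2 significant digits, the 408 rows formed 241 groups, of which 157 held 1 row and 84 held more than 1, with 251 rows in those of more than 1. The lost members formed 12 groups (4.98% of 241) and the kept members 229. That share depends on the rounding: 12 of 396 groups were lost at 3 digits, and 13 of 404 when grouped by equal counts. At 2 digits 0 groups mixed lost and kept rows. Rows of a group have like ratios and the classes were split by ratio, so this 0 follows from the definitions and the gap. Within a group of several rows the log2 ratios spanned a median of 0.03 and at most 0.12. At 3 significant digits the rows formed 396 groups, so most rows joined at 2 digits were no longer joined. Near-equal counts at 2 digits therefore do not show that rows repeat each other. Exactly equal counts were rarer: 8 rows formed 4 pairs, which left 404 different pairs of counts. One such pair, ENST00000559636.1 and ENST00000560612.1, had 3544 bound and 1558 input reads each.

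The largest groups lay near the minimum of 5000 reads, where rounding joins many rows. The largest held 13 rows with 3451 to 3544 bound and 1556 to 1646 input reads, and ratios from 0.08 to 0.19. The next held 9 rows with 3655 to 3728 bound and 1558 to 1649 input reads, with ratios from 0.17 to 0.26. A group of 8 rows had 3581 to 3650 bound and 1561 to 1599 input reads, with ratios from 0.20 to 0.21. Identifier numbers inside the largest group ran from 456481 to 560612, so near-equal counts there did not mean neighbouring identifiers.

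Many kept members also had the counts of a coding transcript. At 2 significant digits, 277 of 395 kept members (70.1%) matched the whole-transcript counts of at least 1 coding transcript, and 0 of 13 lost members did. Among 868 coding transcripts with 5000 or more summed reads, 708 (81.6%) matched another coding transcript in this way, so the rounding alone joins many rows where ratios are alike. Exact matches were few. ENST00000523565.1 (9373 bound and 5788 input reads) had the counts of the coding transcript ENST00000314191.2. ENST00000518216.1 (9291 and 5700) had those of ENST00000338368.3, and ENST00000485286.1 (6168 and 2847) had those of ENST00000354230.3. These 3 were named after their values were seen; whether a match comes from shared reads was not tested. For the 12 lost groups, 0 had counts that any other row with at least 90% of the minimum reads repeated at 2 digits. This 0 has the same limit, since a match needs a like ratio.

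The share of lost members was higher in the more abundant bins. It was 3 of 190 members (1.58%) from 5000 to under 7000 summed reads, 3 of 114 (2.63%) from 7000 to under 10000, 4 of 73 (5.48%) from 10000 to under 20000 and 3 of 31 (9.68%) at 20000 or more. Coding regions in the same bins had 0 of 267, 1 of 209 (0.478%), 1 of 142 (0.704%) and 1 of 55 (1.82%). Whole coding transcripts had 2 of 354 (0.565%), 2 of 242 (0.826%), 1 of 194 (0.515%) and 6 of 78 (7.69%). Each bin holds few lost rows. At equal summed reads a lost row has more input reads than a kept one, so the bins do not compare rows of equal input. The median ratio of kept members was 0.13, 0.13, 0.12 and 0.17 in the same order and showed no such course.

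**Figure D4:**
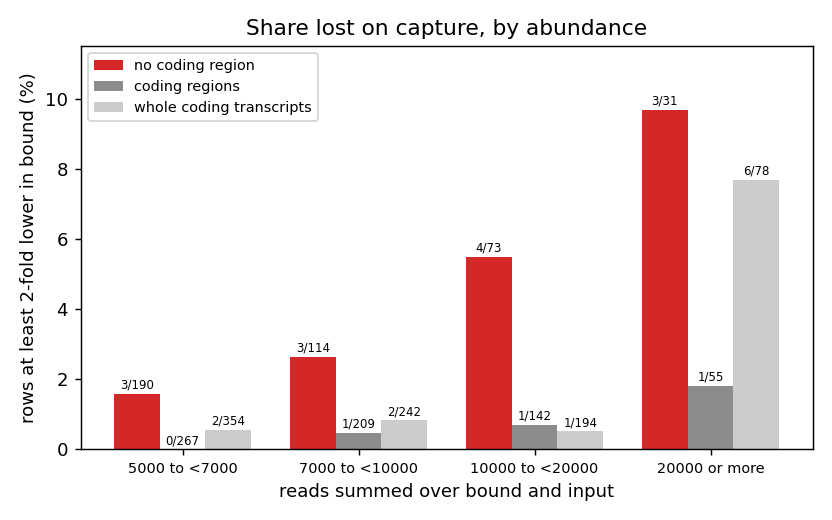
Percent of rows that were lower in the bound library by 2-fold or more (vertical) by reads summed over both libraries (horizontal) for members (red), coding regions (dark grey) and whole coding transcripts (light grey), with lower rows over all rows above each bar. The member share was 1.58% in the lowest bin and 9.68% in the highest, resting on 3 or 4 lost rows a bin.

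The rows that the identifier ranges leave out behaved otherwise as a set. Of those 16 rows 15 met the rule for lost and were lower by 6.38-fold to 55.1-fold, a span that covers most of the lost members. The exception was ENST00000387069.1, whose counts equal those of the most abundant member. The 16 rows took 1.47% of all counts in the bound library and 11.4% in the input, and the lost members are thus a smaller part of the class's reads than the rows left out. The ranges were drawn with results of these data known, and with the 16 rows counted in, 28 of 424 rows were lost.

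The rows on either side of the minimum of 5000 reads were as follows. Just inside were ENST00000477943.1, with 3601 bound and 1412 input reads, and ENST00000452606.2, with 3547 and 1466, at ratios of 0.36 and 0.28. ENST00000447432.2 tied with them at 5013 summed reads and had exactly the counts of ENST00000477943.1. Just outside were ENST00000325000.4, with 3526 bound and 1462 input reads (0.28), and ENST00000549847.1, with 3183 and 1796 (-0.17). Most members, 357 of 408 (87.5%), carried version 1 of their identifier, as did 10 of the 13 lost members and 74.4% of all rows listed.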

How the data were processed

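The authors deposited 1 table of unnormalized read counts for each HEK library, with a row per transcript and, per the file headers, a column for the transcript and 1 for each of its coding, 5′ and 3′ parts. The submitters' processing notes name CASAVA 1.8, Bowtie2 2.0.6, TopHat2 2.0.7 and the build hg19 and give them no role. How reads were assigned to transcripts, including reads with several matches, and the annotation release were not given in the sources used here. If a read with several matches was counted at each, rows of near-equal counts may share reads.

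From these counts, log2 ratios of bound over input were computed with a prior of 0.5 scaled reads (Python 3.11.15, numpy 2.4.6, scipy 1.17.1, pandas 2.3.3; edgeR 4.0.16 for an alternative scaling). Scaling and calls were tested on simulated data. The members, the identifier ranges and the comparisons were chosen with earlier results of these data known. Rows were named by rule: leads of the 12 most abundant groups, the lost groups, the 2 highest and 2 lowest ratios, and 2 rows on each side of the minimum; rows named outside it are marked in the text or are partners or exact repeats of another row. Identifiers of another form (169 rows, with no digits after ENST) could not be tested against the ranges, and 0 of them were abundant rows without a coding region. The mouse libraries were not used here.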

Additional observations from a re-analysis of the deposited data

How the results depend on the processing

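No paired analysis was possible because the bound and input groups hold 1 library apiece. The counts of 13 lost rows and 12 lost groups were 13 and 12 under the 6 planned scalings, priors of 0 and 5, a 4-fold threshold and rows missing the coding region in both files; a 1.5-fold threshold gave 14 and 13, and grouping by equal counts 13 groups. A minimum of 2000 summed reads gave 36 rows in 30 groups (of 1388 rows in 570 groups), and 10000 gave 7 in 6. Keeping the rows inside the identifier ranges, an alternative chosen after seeing the data, gave 28 rows in 26 groups. The number of members 2-fold higher was 0 under each alternative run.

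The median log2 ratio of members, 0.12, follows the scale and is relative to it. It was 0.32 scaled to total counts, which shifts all ratios by 0.20, then 0.21 with edgeR's TMM, 0.21 with median-of-ratios, 0.15 with whole coding transcripts, 0.18 with coding regions of 1 read in each library and 0.078 with those of 500 reads. Scaled to coding regions of 5000 reads, chosen after seeing the data, it was 0.0035, with 14 lost rows. A minimum of 2000 reads gave 0.11.

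The members' share of unscaled counts was 8.82% in the bound library and 8.04% in the input. Without the most abundant member it was 8.46% and 7.75%, and without the 10 most abundant 7.79% and 6.88%. With those rows taken out of the total as well, the values were 8.49% and 7.77%, and 7.87% and 6.96%. The share was 15.6% and 13.9% with a minimum of 2000 reads, and 4.25% and 4.16% with 10000. With each group counted once in members and in the total it was 19.6% and 13.4%; rounding merges most rows of low count, which shrinks the total.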
